A study of Homo sapiens with 12 samples.

Results

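The comparison described here is between HCT116 cells overexpressing the deubiquitinase gene USP51 and HCT116 cells carrying a control vector, across all genes with at least 1 TPM (a transcript level scaled to transcript length and library depth) in either group. Of 17818 genes in the deposited table, 12393 met that rule. Among genes near its edge, 105 had a higher mean of 1 to 1.1 TPM and were kept, and 122 had a higher mean of 0.9 to 1 TPM and were not. HCT116 is an established human colon cancer line. The labels describe 3 libraries with the genotype NC and the treatment Vector and 3 with the genotype USP51, and 3 of each kind in SW480, a second colon cancer line. All cells were grown in DMEM with fetal bovine serum, with no further treatment. As RNA came from whole cultures, a difference in the level per cell and one in the share of cells that express a gene cannot be told apart. The labels do not say whether expression of USP51 was transient or stable, which promoter drove it or whether the cells were a pool or a clone.

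Each value is the authors' mean of a group, because the single-library columns carry codes that match no label. The means named with C were read as NC and those named with E as USP51, and every direction rests on that reading. No standard deviation, n or p-value accompanies a value, and whether a difference exceeds the spread between libraries was not tested. The HCT116 means held 15823540 estimated counts for NC and 15506686 for USP51. A ratio given with 2 bounds in parentheses is that of counts per total, USP51 over NC, with its 95% exact interval. Each was computed as if a mean were a single library's count, so it covers counting error only.

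USP51 belongs to the ubiquitin-specific proteases, enzymes that cut ubiquitin off other proteins. Its catalytic domain resembles those of USP22 and USP27X, and the 3 enzymes share adaptor proteins that direct them to ubiquitin on histones. Several gene groups below answer to oxygen supply. In cells with enough oxygen, prolyl hydroxylases mark the HIF alpha proteins for the VHL ubiquitin ligase and the proteasome. When oxygen is short the alpha proteins last, pair with ARNT and bind short DNA elements near genes for glucose uptake, glycolysis, pH control, vessel growth and collagen modification. HIF activity is thus set mostly at the level of protein, which these data do not measure.

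USP51 itself (NCBI gene 158880, chromosome X, 55484616 to 55489848, GRCh38) had 0 counts and 0 TPM in NC and 1706 counts and 40.8 TPM with USP51. It was at least 471-fold higher by the lower end of the 95% exact interval, and 580-fold higher when 3 counts were put in place of the 0 in NC. All its counts lay on the transcript NM_201286.3. The related genes USP22 (82.6 TPM in NC and 86.2 TPM with USP51) and USP27X (3.03 and 3.38 TPM) differed by log2 ratios of 0.06 and 0.12. ENY2, an adaptor subunit of the histone-directed module, was at 34.5 and 37.6 TPM. Across 22 measured enzymes and adaptors that add or remove histone ubiquitin, USP51 was the only member past 1.5-fold. Their median log2 ratio was 0.05 and turned to just below 0 in CPM (counts scaled to the library total) with TMM scaling.

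Differences were measured as log2((TPM with USP51 + 1) / (TPM in NC + 1)), a scale that understates differences of low genes. The median over all 12393 genes was 0.04, with 5th and 95th percentiles of -0.19 and 0.42, so most of the transcriptome stayed within a narrow band. On this scale 60.8% of genes lay above their NC level, against 47.7% in CPM with TMM scaling and 48.5% with RLE scaling, so a small general excess above NC depended on the scaling. It also moved with gene length and abundance, at 46.3% of the shortest and 76.1% of the longest of 5 equal bins of genes by length, and at 73.1% of the least and 44.0% of the most abundant bin. The part of length or abundance in the list medians below was not tested. At least 2-fold higher were 32 genes, 0.258% of those measured, and at least 2-fold lower were 3, or 0.0242%. Past 1.5-fold were 243 higher genes (1.96%) and 18 lower genes (0.145%). These are rules of size, not tests, and the counts depend on the settings. At 2-fold there were 117 higher genes with a pseudocount of 0.1 TPM and 20 in FPKM, and 10 lower genes with that pseudocount and 13 with curated transcripts alone. A ratio of 1 lay outside the counting interval of 31 of the 32, 227 of the 243, 14 of the 18 and 2 of the 3.

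**Figure D1:**
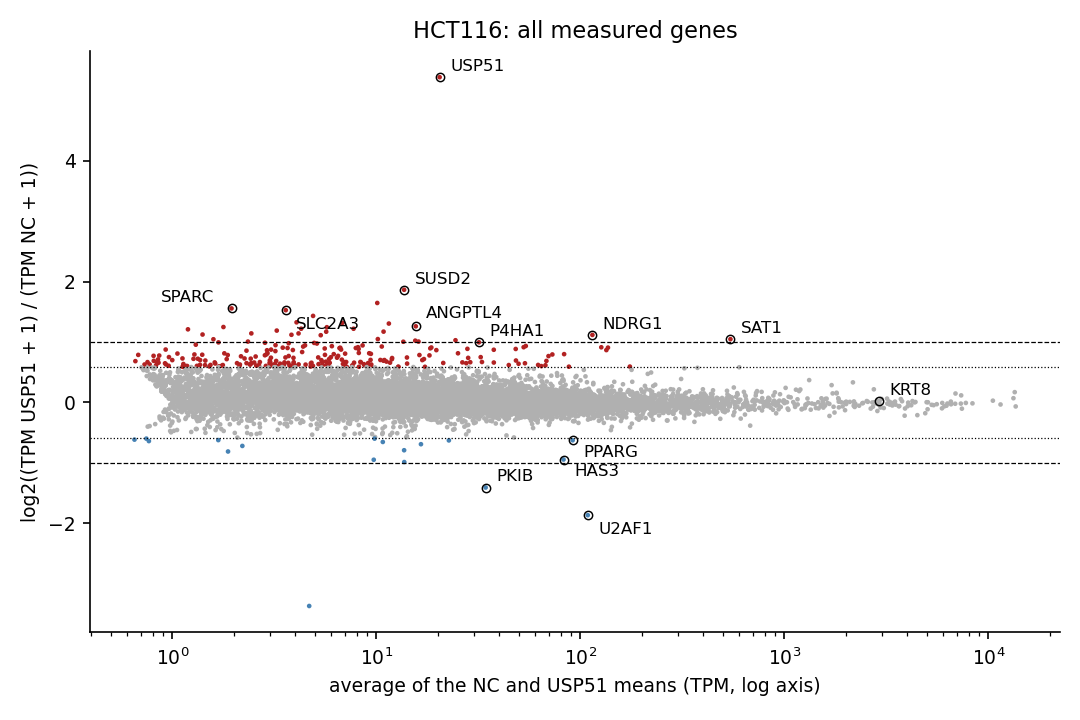
Each point is 1 of 12393 genes, with the average of the NC and USP51 means on a log axis in TPM (x) and the log2 ratio of TPM + 1 (y). Red points lie at least 1.5-fold higher (243) and blue points at least 1.5-fold lower (18), dotted and dashed lines mark 1.5-fold and 2-fold, and USP51 stands apart at a log2 ratio of 5.39.

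The higher genes were mostly weakly expressed. When the genes were split into 5 bins of equal size by abundance, 5.08% of the lowest bin were at least 1.5-fold higher, then 2.62%, 0.807%, 0.726% and 0.565% of the most abundant bin. Of the 32 genes past 2-fold, 8 had under 5 TPM in the higher mean and 7 had under 50 counts in both means. Only NDRG1 and SAT1 among them reached 50 TPM. At the edge of the 2-fold rule, ZBED2 (8.68 and 18.4 TPM, log2 ratio 1.0) was inside and P4HA1 (20.9 and 42.7 TPM, log2 ratio 0.99) was just outside.

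HCT116 kept the markers of its epithelial origin in both groups. All 7 epithelial markers were at 33.4 TPM or more, among them EPCAM (411 and 392 TPM). Of the 9 listed fibroblast markers that the files hold, 2 reached 1 TPM, COL1A1 (9.95 and 15.1 TPM) and ACTA2, and the list summed to 14.8 TPM in NC and 20.9 TPM with USP51. Of 8 leukocyte markers only CD68 did, with sums of 8.52 and 8.38 TPM, and of 5 endothelial markers none did, with sums of 0.297 and 0.417 TPM. Of 5 erythroid markers HBA1 and HBA2 did, HBB was at 0 in both means, and the sums were 4.90 and 8.70 TPM. RNA of the other line was also looked for, through 19 genes under 0.1 TPM in HCT116 NC and at 50 TPM or more in both SW480 means. They summed to 0.387 TPM in HCT116 NC, 1.17 TPM in HCT116 with USP51 and 2827 TPM in SW480 NC. None reached 1 TPM in HCT116 with USP51. The HCT116 NC sum was low by that choice of genes, so it is no even baseline for the USP51 sum.

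The clearest group of higher genes was that of hypoxia targets. Of 18 measured genes listed under pH and vessel growth, 16 lay above NC, 8 past 1.5-fold and none below it by that much. Their median log2 ratio was 0.52 beside 0.04 for all genes. That list also holds glucose transporters and enzymes that modify collagen. Of 23 genes listed as intracellular, 21 lay above NC and 10 past 1.5-fold, with a median of 0.42. That is 18 of 41 members past 1.5-fold, where 1.96% of all genes were. The medians lay above 0 under every scaling and filter tried.

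CA9, a carbonic anhydrase of the cell surface that acts in pH control, was at 2.17 TPM in NC and 6.38 TPM with USP51 (ratio 2.89, 1.87 to 4.57). SLC2A3, a high-affinity glucose transporter, was at 1.37 and 5.82 TPM (4.16, 3.07 to 5.80). ANGPTL4, a secreted protein that blocks lipoprotein lipase, had 8.78 and 22.4 TPM (2.50, 2.06 to 3.06). These 3 were the members of the pH and vessel growth list past 2-fold. SLC2A1, the widespread glucose transporter, was much more abundant and differed less, at 179 and 249 TPM. VEGFA, the growth factor for vessels, was at 36.6 and 44.8 TPM (1.21, 1.11 to 1.31). Its transcripts were not alike, as NM_003376.6 was at 2.06 and 4.88 TPM while NM_001025370.3 was at 17.8 and 20.2 TPM. SLC2A1 and these transcripts were chosen after their values were seen.

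Several hypoxia targets modify collagen, and their differences varied in size. P4HA1, the catalytic subunit of a collagen prolyl hydroxylase, had a count ratio of 2.0 (1.81 to 2.22). PLOD2, a collagen lysyl hydroxylase, was at 19.3 and 36.5 TPM (1.84, 1.68 to 2.02). LOXL2, which crosslinks collagen and elastin, was at 12.6 and 24.6 TPM (1.91, 1.70 to 2.14). P4HA2 (12.2 and 17.2 TPM) and PLOD1 (158 and 201 TPM), further hydroxylases of collagen named after their values were seen, stayed under 1.5-fold.

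Among the intracellular products, NDRG1, a stress-responsive gene linked to differentiation, combined a large ratio with high abundance, at 71.9 and 157 TPM (2.14, 2.03 to 2.26). ANKRD37 was at 3.47 and 10.1 TPM, on 18.5 and 52 counts. The mitophagy receptor genes BNIP3 (51.4 and 88.1 TPM) and BNIP3L (33.6 and 62.8 TPM) were both past 1.5-fold. So were PFKFB4, which makes the activator of phosphofructokinase (13.7 and 25.7 TPM), and KDM3A, a histone demethylase that uses oxygen (20.9 and 35.4 TPM). The other 4 members past 1.5-fold, named after their values were seen, were the transcriptional repressor gene BHLHE40 (28.9 and 46.3 TPM), the pyruvate dehydrogenase kinase genes PDK1 (6.86 and 11.3 TPM) and PDK3 (5.45 and 8.71 TPM), and KDM4B (13.6 and 21 TPM). The members below NC, also picked by their values, were ADM (65.1 and 62.2 TPM) and EFNA1 in the first group and HILPDA (19.0 and 17.4 TPM) and RIOX2 in the second.

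**Figure D2:**
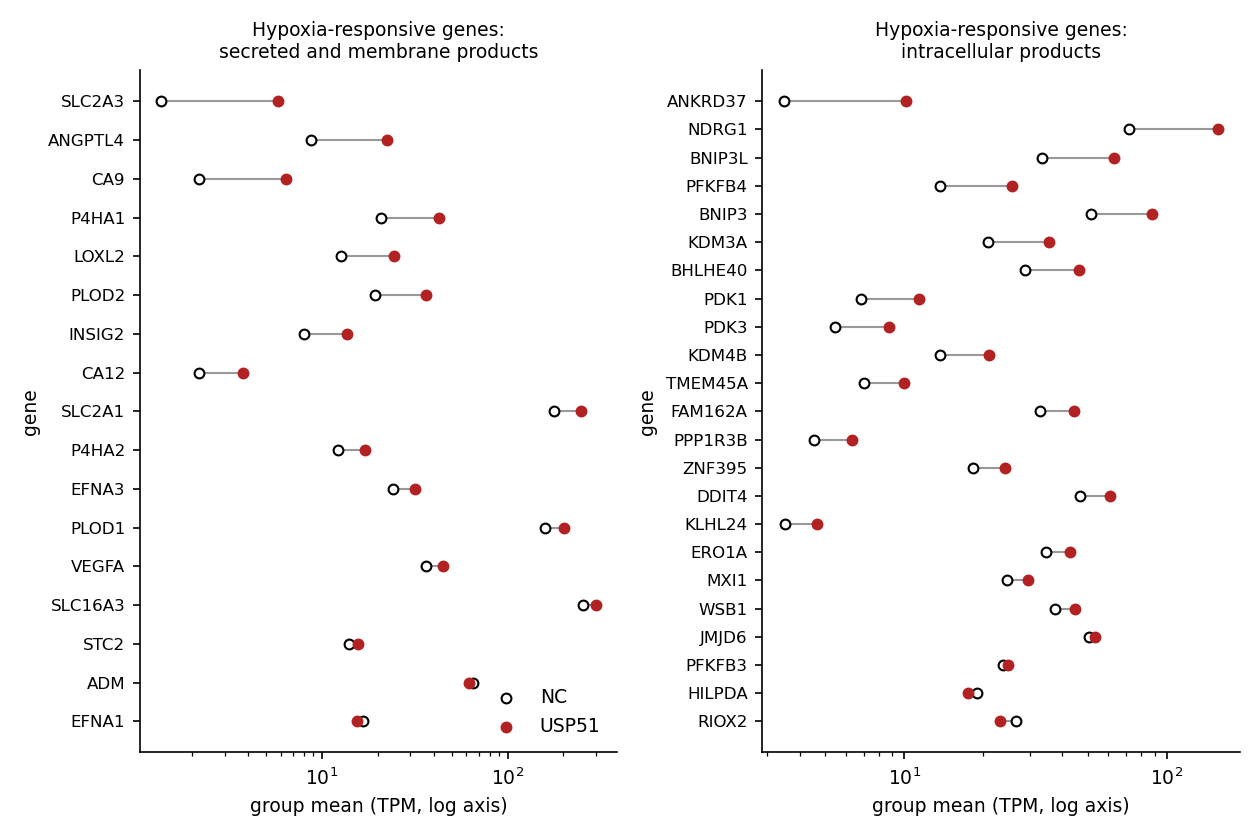
Levels in HCT116 of 17 of the 18 hypoxia targets of pH and vessel growth (panel titled secreted and membrane products) and the 23 intracellular ones. The authors' mean in TPM is on a log axis (x), with genes ordered by log2 ratio (y). White circles are NC and red circles USP51, and the red circle lies to the right for 15 of the 17 and 21 of the 23 genes shown.

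HIF complexes bind the core letters ACGTG or GCGTG, so the bases before the start of these genes are shown for 5 members where a search of both strands found ACGTG, capitals marking each match (CACGT is ACGTG on the other strand, and CACGTG holds both). Each run is 120 bases of RefSeq sequence on GRCh38.p14, printed 5′ to 3′ along the gene's strand. CA9 is shown from chr9:35673808-35673927 on the plus strand, where the match starts 18 bases before the gene. P4HA1 is shown from chr10:73096867-73096986 on the minus strand, and PDK3 from chrX:24465166-24465285 on the plus strand. ANKRD37 is shown from chr4:185396668-185396787 on the plus strand and BNIP3 from chr10:131981967-131982086 on the minus strand, both ending short of the start.
CA9: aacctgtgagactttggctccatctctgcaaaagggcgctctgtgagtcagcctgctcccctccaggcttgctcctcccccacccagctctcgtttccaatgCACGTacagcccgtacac
P4HA1: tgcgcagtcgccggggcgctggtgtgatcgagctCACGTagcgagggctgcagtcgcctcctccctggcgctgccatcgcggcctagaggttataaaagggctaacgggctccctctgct
PDK3: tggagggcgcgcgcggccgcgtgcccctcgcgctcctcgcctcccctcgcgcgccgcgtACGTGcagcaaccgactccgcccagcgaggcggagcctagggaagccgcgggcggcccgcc
ANKRD37: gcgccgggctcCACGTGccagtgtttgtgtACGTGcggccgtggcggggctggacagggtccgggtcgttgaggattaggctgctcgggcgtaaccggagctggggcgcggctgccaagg
BNIP3: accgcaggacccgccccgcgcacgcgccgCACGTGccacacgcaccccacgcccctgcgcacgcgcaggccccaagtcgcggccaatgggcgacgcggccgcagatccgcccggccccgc

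The 5 runs show the letters in both orientations, with 2 separate stretches in ANKRD37. In 250 bases before the start, ACGTG on either strand was present in 23.5% of the 10121 measured genes that had a promoter entry, and GCGTG in 46.2%, so a match alone is common. Only 30 of the 41 measured hypoxia members had an entry, under the 80% needed to compare shares, so none is given for them. The 5 were chosen because they hold a match, and PFKFB4, KDM3A and PDK1, all past 1.5-fold, had no ACGTG in that window. A match is a description of these letters and no binding was measured.

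The genes that make and control HIF were much less different than its targets. HIF1A, the gene of the oxygen-regulated subunit (chromosome 14, 61695513 to 61748258), was at 85 TPM in NC and 84.1 TPM with USP51 (0.972, 0.925 to 1.02). Its partner ARNT was at 16.8 and 19.5 TPM and the related EPAS1 at 20.8 and 23.9 TPM. VHL, named after its values were seen, was at 18.7 and 19.5 TPM. The prolyl hydroxylase gene EGLN3, itself a known hypoxia target, passed 1.5-fold as the single member to do so, at 4.54 and 8.44 TPM (1.83, 1.45 to 2.32), and EGLN1 was at 25.3 and 33.1 TPM. The 13 measured members had a median of 0.06.

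Glycolysis enzymes lay above NC in 16 of 17 cases, with a median of 0.22 and 3 past 1.5-fold. These were ENO2, an enolase (36.8 and 71.2 TPM, ratio 1.90, 1.74 to 2.07), ALDOC, an aldolase (87.5 and 166 TPM, ratio 1.85, 1.73 to 1.99), and HK1, a hexokinase (41.4 and 65.5 TPM, ratio 1.55, 1.45 to 1.65). The HK1 difference lay mainly on NM_000188.2, at 41.3 and 64.3 TPM. PGK1 (184 and 260 TPM) and GPI (270 and 353 TPM) differed less than 1.5-fold at much higher levels. GAPDH, named after its values were seen, was the enzyme below NC, by a log2 ratio of -0.04. Nuclear genes of the respiratory chain had a median of 0.00 over 32 members, with no member past 1.5-fold and a sign that turned below 0 in FPKM (a level per transcript length and depth) and CPM.

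Genes of WNT ligands and of feedback in that pathway lay above NC in 16 of 18 cases, with a median of 0.35 and 6 past 1.5-fold. The pathway steadies beta-catenin in intestinal stem cells, and its targets include its own inhibitors. NOTUM, a secreted enzyme that inactivates WNT proteins, was at 10.4 and 21.8 TPM (2.06, 1.75 to 2.45), and DKK1, which blocks the WNT co-receptor, at 94.7 and 173 TPM (1.80, 1.69 to 1.91). AXIN2, a scaffold of the complex that destroys beta-catenin, was at 17.9 and 32.3 TPM, but its log2 ratio of 0.81 came to 0.29 when predicted transcripts were left out. WNT7B was at 4.84 and 9.21 TPM. The other 2 past 1.5-fold were weakly expressed ligands named after their values were seen, WNT6 (1.58 and 4.11 TPM) and WNT11 (1.87 and 4.53 TPM). WNT16, also a ligand, went the other way, at 56.8 and 37.6 TPM (0.655, 0.606 to 0.707). Its log2 ratio of TPM + 1, -0.58, was just short of 1.5-fold, although its count ratio was past it. Receptors, transducers and repressors of the pathway had a median of 0.09 over 27 members, none past 1.5-fold.

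Immediate early genes, transcribed first after a growth factor signal, had a median of 0.21, with 18 of 23 above NC and 6 past 1.5-fold. EGR3 was at 4.24 and 11.2 TPM (2.63, 2.20 to 3.18), the nuclear receptor gene NR4A1 at 94.6 and 178 TPM (1.84, 1.74 to 1.93) and KLF2 at 26.3 and 48.9 TPM (1.82, 1.66 to 2.0). The other 3 were EGR2, NR4A2 and ATF3, between log2 ratios of 0.66 and 0.70, although NR4A2 was at 0.32 with curated transcripts alone. KLF4, a factor of differentiating epithelium, was lowest, at 51.7 and 35.1 TPM (0.664, 0.612 to 0.722). Genes of ERK feedback, in a list that also holds ERK targets such as CCND1, ETV4 and EPHA2, lay above NC in 17 of 19 cases. Their differences were smaller, with a median of 0.14 and none past 1.5-fold. DUSP6, the ERK phosphatase, was at 129 and 164 TPM.

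Targets of YAP and TEAD, the factors restrained by the Hippo pathway, had a median of 0.30, with 13 of 15 above NC. The 2 past 1.5-fold were the matricellular genes CCN2 (3.01 and 7.66 TPM, ratio 2.50, 1.87 to 3.41) and CCN1 (60.5 and 106 TPM, ratio 1.72, 1.6 to 1.84). Semaphorins, ephrins and other guidance genes lay above NC in 30 of 34 cases with a median of 0.27, yet no member passed 1.5-fold. EPHB3 (4.12 and 6.65 TPM), SEMA3B (log2 ratio 0.55), SEMA3A (7.84 and 11.9 TPM) and the netrin receptor gene UNC5B (14.8 and 21.3 TPM) led that list. The neurotrophin receptor gene NGFR was at 6.28 and 14 TPM (2.19, 1.86 to 2.60), and BDNF, a ligand of the family, at 14 and 20.4 TPM. NOTCH3 was at 10.0 and 15.6 TPM, at the edge of 1.5-fold, and was short of it in FPKM and with TMM or RLE scaling.

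Matrix genes differed in both directions. Of 34 measured, 28 lay above NC, with 7 past 1.5-fold, and 6 lay below it, with 3 past 1.5-fold. SPARC, a collagen-binding matricellular protein, was at 0.497 and 3.40 TPM (6.69, 3.90 to 11.6), COL13A1 at 2.71 and 6.04 TPM and FN1, fibronectin, at 6.59 and 10.8 TPM. The lower members were of another kind. HAS3, which makes hyaluronan at the cell surface, was at 109 and 56.1 TPM (0.504, 0.479 to 0.530). VCAN, a proteoglycan that binds hyaluronan, was at 17.6 and 9.73 TPM (0.537, 0.495 to 0.582), and HS3ST1, a heparan sulfate sulfotransferase, at 20.7 and 12.4 TPM (0.592, 0.545 to 0.643). All 3 transcripts of HAS3 with at least 1 TPM were lower, and most of the VCAN difference lay on NM_001164097.1, at 16 and 8.30 TPM. COL1A1, also listed as a fibroblast marker, was at 9.95 and 15.1 TPM, and ACTA2, another, at 4.60 and 5.51 TPM. Further markers of that list were near 0, such as COL1A2 (0 and 0.02 TPM), COL3A1 (0.0333 and 0.0533 TPM) and DCN (0 in both means). The part of such cells in the matrix genes was not tested. Transcription factors and markers of epithelial to mesenchymal transition had a median of 0.28, which came to 0.05 at the lowest of the alternative settings. FN1 was the member of 7 past 1.5-fold (just short of it in FPKM), while the epithelial cadherin gene CDH1 was at 33.4 and 41.5 TPM.

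**Figure D3:**
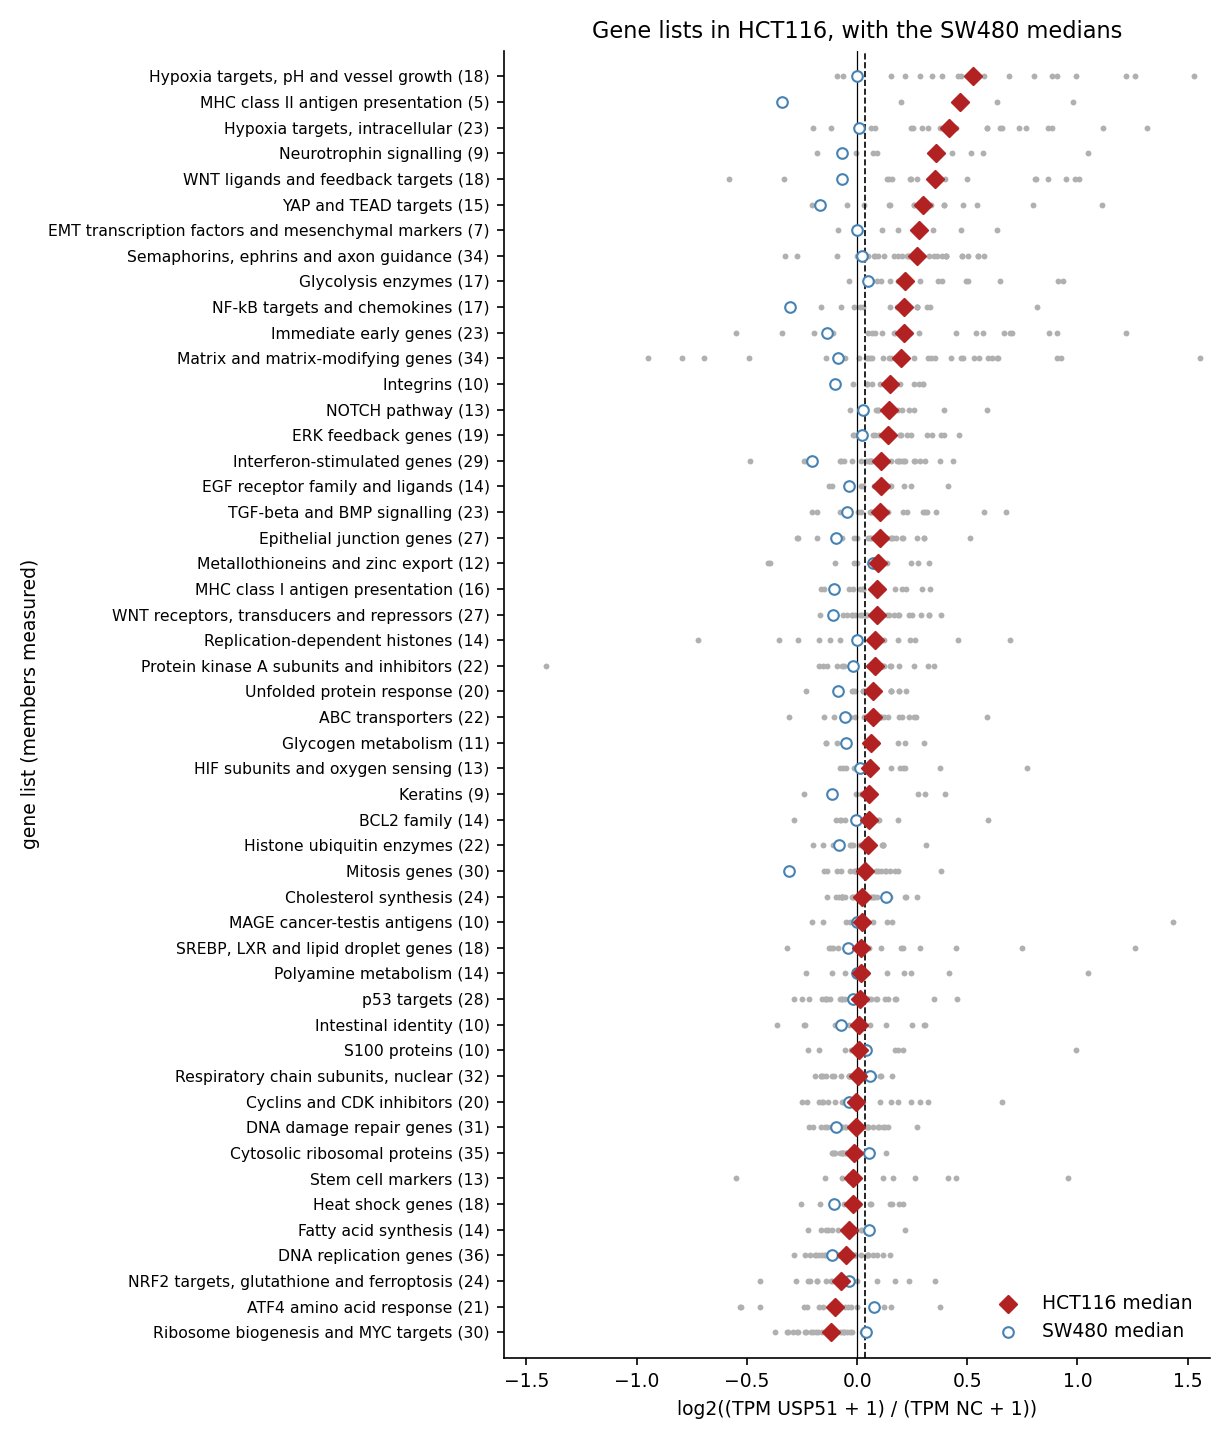
Each row is 1 of 50 gene lists with its number of measured members, ordered by the HCT116 median. Grey points are members in HCT116 (USP51, at 5.39, lies outside the axis), red diamonds the HCT116 median and white circles the SW480 median of the log2 ratio of TPM + 1. The dashed line is the HCT116 median of all genes, 0.04, and 31 of 50 lists lie above it, with hypoxia targets at 0.52 and 0.42 near the top.

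Antigen presentation by MHC class II is usual in immune cells and inducible in epithelium. Of 12 genes listed for it, 5 reached 1 TPM in either mean, and presentation itself was not measured. All 5 measured members lay above NC with a median of 0.46, led by HLA-DRA (2.17 and 5.26 TPM, 22 and 51 counts). That median came to 0.19 at the lowest of the alternative settings. HLA-DRB1 (3.86 and 6.54 TPM) is uncertain because it shares reads with close copies. The leukocyte markers summed to 8.52 and 8.38 TPM. Interferon-stimulated genes had a median of 0.11 over 29 members with none past 1.5-fold, and IFI35 was the lowest, at 16.8 and 11.7 TPM. NF-kB targets had a median of 0.21 over 17 members, which came to 0.08 at the lowest of the alternative settings. Past 1.5-fold was 1 member, LCN2, the iron-binding lipocalin, at 5.66 and 10.7 TPM on 32.3 and 59 counts.

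Lists near 0 included those of cell division and of the colonic identity. The 30 mitosis genes had a median of 0.03, a sign that turned with TMM and RLE scaling, and the 28 p53 targets one of 0.01, which turned in FPKM, CPM and curated transcripts. The 10 measured intestinal identity genes also had a median of 0.01, which turned in FPKM and CPM and without the filter. No member of these 3 lists passed 1.5-fold. The stem cell markers had a median of -0.02, which turned without the filter. CD44, a hyaluronan receptor used as such a marker, was at 214 and 232 TPM.

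The 4 lowest list medians lay slightly below 0. Of 30 genes of ribosome biogenesis and MYC targets, 28 lay below NC, with a median of -0.12. RRS1 (79.2 and 60.9 TPM) and GRWD1 (24.9 and 19.8 TPM), both ribosome assembly factors, differed most. DNA replication genes lay below NC in 28 of 36 cases with a median of -0.05, among them the sliding clamp gene PCNA (603 and 520 TPM, ratio 0.847, 0.816 to 0.878) and the licensing factor gene CDT1 (103 and 87.0 TPM). NRF2 targets and glutathione genes lay below NC in 19 of 24 cases with a median of -0.07, including both ferritin genes, FTL and FTH1. Genes of the ATF4 amino acid response lay below NC in 16 of 21 cases with a median of -0.10. ATF5 (32.7 and 22.3 TPM, ratio 0.678, 0.598 to 0.768), CHAC1, which degrades glutathione (11.4 and 7.63 TPM), and the cystine transporter gene SLC7A11 (11.6 and 8.26 TPM, ratio 0.698, 0.636 to 0.765) led it. Other lists of growth and stress lay nearer 0 or above it, with medians of -0.01 for cytosolic ribosomal proteins, -0.02 for heat shock genes and 0.07 for the unfolded protein response. No member of the 4 lowest lists passed 1.5-fold, and the 4 medians were below 0 under every alternative tried.

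Of the 243 genes at least 1.5-fold higher, 58 belonged to the 50 lists and 185 to none of them, where 946 of all 12393 measured genes were listed. SUSD2, a membrane protein with a sushi domain (NCBI gene 56241, chromosome 22, 24181487 to 24189106), was at 5.32 and 22 TPM and had 162 and 646 counts, a ratio of 4.06 (3.42 to 4.86). SAT1, the enzyme that acetylates spermidine and spermine for export or breakdown (chromosome X, 23783173 to 23786210), was the most abundant gene past 2-fold. It was at 354 and 733 TPM (1.95, 1.88 to 2.02), and both of its measured transcripts were higher, NM_002970.3 at 259 and 560 TPM. Other polyamine genes did not differ alike, with ODC1, the first enzyme of the route, at 407 and 376 TPM, and the list median of 0.02 changed sign in FPKM and CPM.

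The other genes past 2-fold encode proteins of several kinds. TGM2, a transglutaminase that crosslinks proteins, was at 6.28 and 15.4 TPM (2.38, 2.05 to 2.79), mostly on the predicted transcript XM_011529028.1. PRF1, the perforin gene, was at 6.21 and 16.8 TPM (2.65, 2.19 to 3.23), with the leukocyte markers level as given above. F10, coagulation factor X, was at 2.05 and 5.62 TPM, and the cytokine gene IL32 at 1.14 and 3.73 TPM on 6.33 and 19.3 counts. The cancer-testis antigen gene MAGEB1 was at 2.19 and 7.60 TPM, whereas its relative MAGEB2 was at 201 and 208 TPM. The troponin gene TNNC1 was at 15.7 and 33.1 TPM (2.07, 1.53 to 2.79) and KIAA0040 at 9.89 and 21.1 TPM (2.09, 1.86 to 2.34). AFAP1L2, PRTN3, LEMD1, PPP1R1A, DEPP1, SCHIP1, EFHD1 and KLK1 were past 2-fold at 8.45 TPM or less with USP51. HBA1 (5.91 and 18.9 counts) is uncertain, as its coding sequence equals that of HBA2, and H2AC7 rested on under 5 counts. The remaining gene past 2-fold was a locus without a symbol.

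Among lower genes, PKIB, an inhibitor of protein kinase A (NCBI gene 5570, chromosome 6, 122471921 to 122726373), was at 50.3 and 18.3 TPM (0.390, 0.331 to 0.459). Its main transcripts XM_011535935.2 (28.4 and 5.44 TPM) and NM_181795.3 (15.2 and 7.09 TPM) were both lower, while XM_011535936.1 was at 0.01 and 2.63 TPM. Other subunits and inhibitors of the kinase did not share this, with PRKACB, a catalytic subunit, at 70.8 and 88.7 TPM. PPARG, the lipid-sensing nuclear receptor, was at 111 and 71.7 TPM (0.634, 0.588 to 0.683), and ANXA10, an annexin, at 27.7 and 17.6 TPM (0.622, 0.520 to 0.741). DPEP1, a membrane dipeptidase, was at 18.5 and 8.84 TPM, a difference carried by the predicted transcript XM_005256286.4 (17.6 and 8.02 TPM). U2AF1, a splicing factor, was at 171 and 46.1 TPM, but the table can split its reads with a near-identical copy, and in SW480 it was at 0.720 and 8.47 TPM. SULT1A4, CSNK2A3, H4C5 and the readthrough gene BCL2L2-PABPN1 are uncertain for the same kind of reason, and LAMA4 was at 2.25 and 1.11 TPM. The third gene at least 2-fold lower was a locus without a symbol that rested on 1.33 and 0 counts.

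Gene sums can hide transcripts that differ in opposite directions. Of 6655 genes with at least 2 transcripts and 10 TPM in both means, 18 had a transcript whose share of the gene differed by at least 25 percentage points, and 1 of these, PKIB, was also past 1.5-fold as a gene. In FAM20B, a xylose kinase of proteoglycan synthesis, NM_001324311.1 made up 0% in NC and 44.4% with USP51, on 0.0267 and 308 counts. In ZBTB48, a telomere-associated zinc finger gene, NM_001278648.2 made up 55.2% and 15.7%. Shares of EXT2, a heparan sulfate polymerase, differed through NM_000401.3, at 28.5% and 58.0%. FCF1, PIGO, SLC39A8, COQ10A, DHX57, LINGO1 and KAZN were the others among the 10 largest. Reads shared by transcripts were divided by an estimate, and no spread between libraries is available for it.

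The same genes were set beside their SW480 values, where USP51 was at 0.513 TPM in NC and 25.7 TPM with USP51. Of the 243 genes at least 1.5-fold higher in HCT116, 108 lay above NC in SW480, 5 by 1.5-fold, and 6 lay 1.5-fold below it, with a median of -0.01 beside -0.03 for all genes. Of the 32 past 2-fold, USP51 and CA9 were past 1.5-fold in the same direction in SW480. CA9 was at 2.78 and 9.50 TPM there, with a log2 ratio of 1.47 beside 1.22 in HCT116. NDRG1 was at 65.8 and 84.3 TPM, SAT1 at 164 and 164 TPM, and NGFR at 161 and 86.2 TPM. SLC2A3, low in HCT116, was at 449 and 388 TPM. The hypoxia lists had SW480 medians of 0.00 and 0.01, and those of WNT feedback, YAP targets and NF-kB targets were -0.07, -0.17 and -0.31. The 694 genes measured on chromosome 3 had a SW480 median of -0.26. PLOD2, PFKFB4 and BHLHE40 of the hypoxia lists lie on that chromosome, and its part in the SW480 list medians was not tested. PKIB (0.0467 TPM in NC), VCAN and ANXA10 (both 0 TPM in NC) were hardly expressed in SW480. Whether the lines differ in their response was not tested, since means give no error for the difference.

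**Figure D4:**
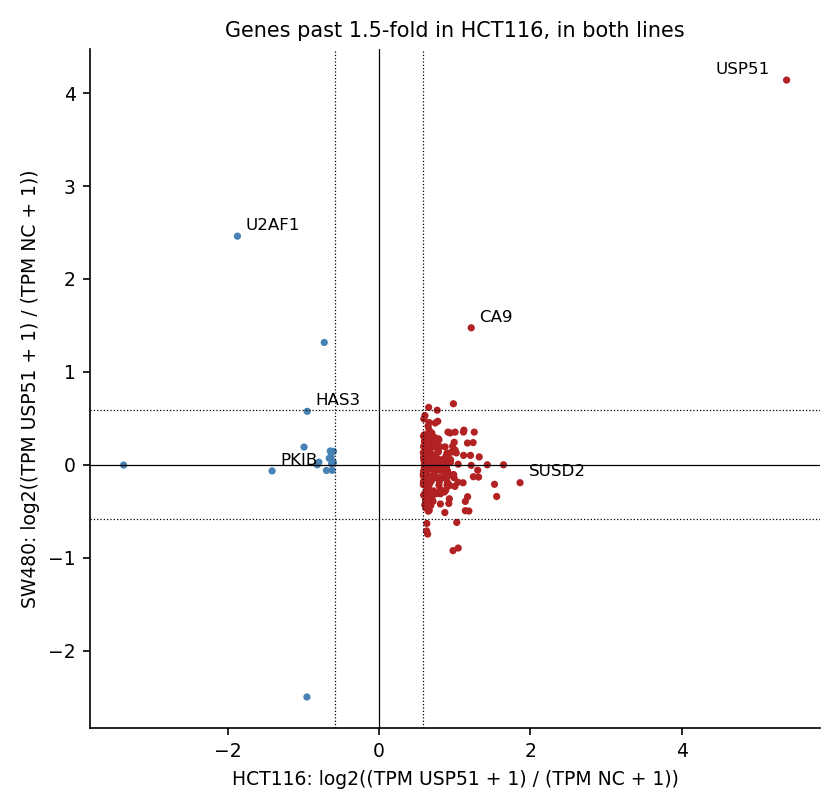
Each point is a gene at least 1.5-fold higher (red, 243) or lower (blue, 18) in HCT116, with its log2 ratio of TPM + 1 in HCT116 (x) and in SW480 (y), and dotted lines at 1.5-fold. Apart from USP51 and CA9, most points lie between the horizontal dotted lines, and 108 of the 243 red points lie above 0 in SW480.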

How the data were processed

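Total RNA was extracted with TRIzol and sequenced on a BGISEQ instrument, per the labels' protocols. The submitters' processing notes list the build hg38 and the tools TopHat and DESeq 1.32.0, with no roles. Neither the counter nor its strand setting is given in the sources used here. Deposited was a table of 84345 RefSeq transcripts with estimated counts, TPM and FPKM as the authors' means per group, per the file headers. Its 36 single-library columns, under codes that match no label, were not used. The means are not linked to numbered libraries, so tests, standard deviations and leaving out libraries could not be carried out.

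Transcripts were summed per NCBI gene identifier with pandas 2.3.3, and symbols and coordinates came from RefSeq on GRCh38.p14 (17672 of 17818 identifiers had a symbol). The pseudocount was 1 TPM. Exact conditional (Clopper-Pearson) intervals used SciPy 1.17.1 on mean counts rounded to whole numbers. The depth was 15823540 and 15506686 estimated counts. Alternative scaling factors (TMM and RLE) came from edgeR 4.0.16 in R 4.3.3, and no edgeR test was run. The interval script was tested on simulated data.

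The genes and lists were chosen with earlier results of these data known. Named are USP51, USP22, USP27X, genes past 2-fold whose interval excludes 1, the 15 lowest ratios, up to 6 members of each list with the largest absolute ratio and at least 5 TPM, HIF1A, VEGFA, CA9, CD44, and the 10 genes with the largest transcript shift. Some that the rule takes are not reported. Gene lists hold 1114 genes, of which 946 were measured. Promoter entries existed for 173 of the 243 genes at least 1.5-fold higher, so motif shares by direction are void and not given.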

Additional observations from a re-analysis of the deposited data

How the results depend on the processing

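No paired analysis was possible because the means carry no replicate numbers, and for the same reason no library could be left out. A pseudocount of 0.1 TPM in place of 1 gave 117 genes at least 2-fold higher and 10 lower, and 501 and 51 past 1.5-fold. FPKM gave 20 genes at least 2-fold higher and 146 past 1.5-fold. A minimum of 5 TPM left 143 genes past 1.5-fold higher. Curated transcripts alone gave 13 genes at least 2-fold lower and 48 past 1.5-fold lower, beside 43 and 290 higher. CPM, TMM and RLE scaling, no filter, and a minimum of 50 counts (chosen after seeing the data) kept all 4 gene counts within 1.5 times of those reported, with 25 to 32 genes past 2-fold higher. Genes with a shifted transcript numbered 3 at 20 TPM, 7 among curated transcripts and 0 at 50 percentage points. Of 50 list medians, 12 changed sign under some alternative, all with reported medians of 0.05 or less in size. Of 81 named genes past 1.5-fold, none changed sign and 15 fell short of 1.5-fold under some alternative. Depth limits the weakly expressed genes, as 50 of the 243 higher genes had under 50 counts in both means.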
